A study of Mus musculus with 6 samples.

Results

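The genes described here encode the proteases that cut the matrix around cells, the plasminogen system and the inhibitors that hold both in check. They form a list of 38 mouse genes, drawn up with earlier results of these data known: 13 matrix metalloproteinases (MMPs), 6 ADAM and 8 ADAMTS metalloproteases, 4 tissue inhibitors of metalloproteinases (TIMPs), 4 genes of the plasminogen system, Bmp1, Htra1 and Reck. Members were found by symbol through the RefSeq transcript of each array probe, and all 38 were on the array, among 20659 genes with a named probe. They had 50 probes, of which 40 were kept, and 32 of the 38 genes could be tested. RNA came from MC3T3-E1 cells, a line of mouse pre-osteoblasts, the precursors of bone-forming cells, cultured for 3 days on a scaffold. The De-HA group (n = 3) grew on a scaffold that, after dealloying, carried a coating of bioactive materials. Cells of the FeMnSi group (n = 3) were on the original scaffold of the alloy, named for iron, manganese and silicon. The labels give no genotype or added agent for either group.

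MMPs are made as inactive precursors, are switched on by other proteases and are blocked by TIMPs. In bone, collagen-cutting MMPs clear unmineralised matrix, ADAM proteases shed proteins from the cell surface, and ADAMTS proteases trim procollagen and cut large proteoglycans. Urokinase and tissue-type plasminogen activator turn plasminogen into plasmin, which degrades fibrin and can activate some MMPs, and serpins stop them.

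There was 1 Agilent array, read in a single colour, for each sample, and no spot was saturated. Between 63.5% and 74.4% of probes were well above background in De-HA, and between 69.2% and 73.2% in FeMnSi. Slides were told apart by scan time alone, so a slide here means arrays with a shared scan time. Slide 1 held all De-HA arrays with FeMnSi 1, and slide 2 held the remaining FeMnSi arrays. A value "within slide 1" below is the De-HA mean minus FeMnSi 1 alone. Slide 2 held no De-HA array, so a fit with the slide as a block gives this same estimate. The labels do not say whether replicates were separate cultures. The p-values therefore measure the spread between these samples alone, and that spread may be technical. All 9 osteoblast markers checked were measured, with a summed signal of 193100 to 221500 in De-HA and 152300 to 183300 in FeMnSi. Most of that sum was Col1a2, Sparc and Col1a1, none of which passed. After quantile normalization their log2 fold changes were 0.0858, 0.105 and 0.0879. They did not move together: Runx2, Sp7, Alpl and Ibsp rose, Spp1 fell (log2 fold change -1.09), and the other 4 did not pass. Adding a slide block removed the calls of Runx2, Sp7, Alpl and Ibsp (limma adjusted p 0.152, 0.207, 0.14 and 0.0821). The call of Spp1 was kept (0.0485). Of the lists for other cell types, 2 of 6 endothelial, 3 of 6 chondrocyte, 4 of 6 epithelial, 5 of 6 adipocyte, 5 of 6 smooth muscle and 6 of 8 macrophage and osteoclast markers passed the filter on dim probes. The 2 endothelial markers summed to 525.5 to 580.3 in De-HA and 411.4 to 425.2 in FeMnSi. Of these, Kdr rose (0.41, limma adjusted p = 0.0272) and Pecam1 did not pass. The 4 epithelial markers summed to 145.4 to 161.8 in De-HA and 124 to 142.1 in FeMnSi, and none of them passed. The 5 smooth muscle markers summed to 44150 to 45290 in De-HA and 15270 to 16270 in FeMnSi, and 4 of them rose (Acta2, Myl9, Tagln and Cnn1), though Cnn1 passed neither after quantile normalization (adjusted p = 0.227) nor with a slide block (0.203). The 3 chondrocyte markers summed to 14160 to 14680 in De-HA and 9787 to 10120 in FeMnSi, with Col2a1 higher by 1.11 on the log2 scale. Col2a1 was the only one of these to pass, and most of the higher sum rests on it. Sox9 gave 0.15, or -0.02 after quantile normalization, and Col10a1 gave -0.26. The 5 adipocyte markers summed to 169.9 to 177.5 in De-HA and 218.6 to 242.6 in FeMnSi. That lower sum in De-HA rests on Fabp4 (-1.99), the only one of them to pass. The other 4 did not fall: Lpl gave 0.94, Cebpa 0.37, Plin1 0.29 and Pparg 0.0009. The part of these markers in the results below was not tested.

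Signals are given on the log2 scale after all arrays were brought to a common 75th percentile, and levels of different genes are not comparable, since each probe has its own brightness. De-HA was set against FeMnSi in limma, with p-values adjusted by Benjamini-Hochberg across the 15535 tested genes and called under an adjusted p of 0.05. Among the 32 genes tested, 5 passed. Htra1, Plaur and Plat rose, and Mmp19 and Timp1 fell. Over all genes, 10.7% passed, 6.46% as higher and 4.29% as lower in De-HA, so the share among the proteases and inhibitors lies near that background and does not set the list apart. The median log2 fold change was 0.17 for the 32 genes and 0.10 for all genes, or 0.04 and 0.0035 after quantile normalization, which took 0.10 off the median of all genes. Arrays of the groups did not overlap for 15 of the 32 genes, with De-HA above for 13 and below for 2, where 39.1%, 25.4% and 13.7% of all genes showed these patterns. After quantile normalization, Htra1 passed as higher and Mmp19 and Timp1 as lower, where 10.1% of all genes passed, 4.41% as higher and 5.66% as lower. The log2 fold change was above 0 for 26 of the 32 genes and 63.1% of all genes, or for 20 and 50.6% after quantile normalization. With the slide as a block 0 of the 32 passed in limma, where 1.16% of all genes did, 0.657% as higher and 0.502% as lower. Without the block, 13 of the 32 had an unadjusted p under 0.05, 10 as higher and 3 as lower, where 33.6%, 22.8% and 10.7% of all genes did. FeMnSi 1 lay nearer to the De-HA mean than the mean of FeMnSi 2 and 3 did for 25 of the 32 genes, and for 65.4% of all genes. Without FeMnSi 1, 7 of the 32 genes were higher and 3 lower, where 29.7% of all genes passed, 20.8% as higher and 8.90% as lower. Leaving out FeMnSi 1 sets slide 1 against slide 2, so group and slide cannot be told apart there or wherever that fit is named below. Calls over all genes also became fewer when any other array was left out. Without De-HA 1, 2 of the 32 passed, where 3.30% of all genes did, and without De-HA 2, 1 of the 32, where 2.41% did. In limma 0 of the 32 passed without De-HA 3, FeMnSi 2 or FeMnSi 3, where 1.51%, 3.37% and 1.46% of all genes did. The plot of log2 fold changes shows the 32 genes by family.

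**Figure D1:**
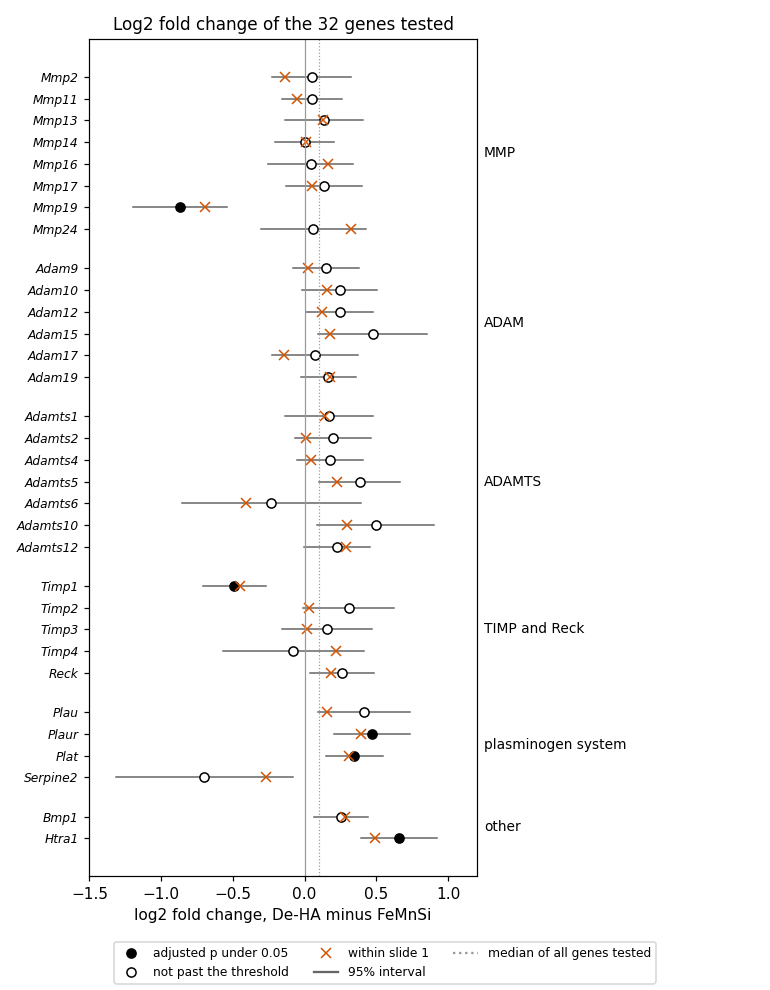
Log2 fold change of the 32 tested genes, De-HA minus FeMnSi (x axis, log2 units), with its 95% interval from limma. Filled points passed an adjusted p of 0.05, crosses give the value within slide 1, and the dotted line marks the median of all genes at 0.10. The filled points are Htra1, Plaur and Plat on the right and Mmp19 and Timp1 on the left.

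Among the MMPs, Mmp19 alone passed, and it fell in De-HA. Mmp19, a secreted MMP that cuts basement membrane proteins, had 6.57, 6.96 and 6.92 on De-HA 1, 2 and 3, against 7.51, 7.79 and 7.75 on FeMnSi 1, 2 and 3. Every De-HA array lay below every FeMnSi array, and the gap between the groups, from 6.96 to 7.51, was wider than the range within either. The fall was 1.83-fold (log2 fold change -0.87 ± 0.14 SE, limma adjusted p = 0.0164). Within slide 1 it was -0.69, and the slide-block adjusted p was 0.118. Leaving out De-HA 1, De-HA 2 or FeMnSi 1 kept the call, while leaving out De-HA 3, FeMnSi 2 or FeMnSi 3 gave adjusted p-values of 0.0631, 0.0543 and 0.0715. With normexp background correction the log2 fold change was -0.56.

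The other 7 tested MMPs had log2 fold changes of at most 0.14 in size, and their arrays overlapped. Mmp13 encodes collagenase-3, the main collagenase of mouse bone. It had 12.82, 12.43 and 12.59 on De-HA 1, 2 and 3, against 12.48, 12.47 and 12.48 on FeMnSi 1, 2 and 3. The FeMnSi arrays were nearly equal, and the De-HA arrays lay on both sides of them. Its difference was 0.14, with a 95% interval of -0.13 to 0.41 (limma adjusted p = 0.422), and the difference was -0.02 after quantile normalization. Mmp14, the membrane-type MMP that activates pro-Mmp2, had 10.98, 10.86 and 10.85 in De-HA, against 10.89, 10.85 and 10.96 in FeMnSi. Here the groups lay on top of each other, with an interval of -0.20 to 0.20 around a difference of -0.0005. Mmp2 encodes gelatinase A, and it had 12.69, 12.48 and 12.60 in De-HA, against 12.73, 12.41 and 12.49 in FeMnSi. Its interval was -0.23 to 0.32, and the sign of its difference (0.05) turned after quantile normalization (-0.11) and within slide 1 (-0.14).

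Mmp11, stromelysin-3, which is activated inside the cell by furin, gave 0.05, with a sign that turned with median scaling (-0.04) and within slide 1 (-0.05). Its dimmer probe gave -0.04. Mmp16, Mmp17 and Mmp24 are membrane-anchored. Mmp17 gave 0.14, and the weakly measured Mmp16 and Mmp24 gave 0.04 and 0.06, both of which turned negative after quantile normalization (-0.07 and -0.06). The FeMnSi arrays of Mmp24 spread from 5.25 to 5.83, a range that held all De-HA arrays (5.52 to 5.65), and its second, dimmer probe gave 0.49.

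Of the 13 MMPs, 5 were too dim to test. Mmp9, gelatinase B, is best known in bone from osteoclasts; its probe, printed in 10 spots, was well above background on 0 of the 6 arrays. Neither were the probes of Mmp10, a stromelysin, and Mmp15, a membrane-type MMP. The stromelysin gene Mmp3 was well above background on 1 array, a De-HA array, and Mmp23, a membrane-tethered MMP, on 2 FeMnSi arrays and on 0 De-HA arrays. These signals support no fold change, and Adamts9 below is the 6th member without a test.

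Promoters of 5 members are shown because Mmp13 and other protease genes are known targets of AP-1, the dimer of Fos and Jun proteins, and Mmp13 also of Runx2, and genes for these factors differed between the groups. The windows are the 150 bases before the transcription start in the RefSeq annotation of GRCm38.p6, all on the plus strand, 5′ to 3′. Capitals mark AP-1 letters (TGAGTCA or TGACTCA), RUNX letters (TGTGGT or ACCACA) and TATA box letters (TATAAA or TTTATA), searched on both strands. The windows lie at chr9:7272364-7272513 for Mmp13, chr9:7445672-7445821 for Mmp3, chr7:24462333-24462482 for Plaur, chr7:130936053-130936202 for Htra1 and chrX:20870016-20870165 for Timp1.
Mmp13: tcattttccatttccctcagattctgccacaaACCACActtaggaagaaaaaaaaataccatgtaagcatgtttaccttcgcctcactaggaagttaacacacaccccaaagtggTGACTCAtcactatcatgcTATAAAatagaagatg
Mmp3: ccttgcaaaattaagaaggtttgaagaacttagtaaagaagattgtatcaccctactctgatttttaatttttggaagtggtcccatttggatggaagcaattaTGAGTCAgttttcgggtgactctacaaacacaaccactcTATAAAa
Plaur: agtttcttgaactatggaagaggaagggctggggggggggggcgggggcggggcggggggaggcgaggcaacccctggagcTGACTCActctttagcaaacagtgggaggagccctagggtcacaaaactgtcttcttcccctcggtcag
Htra1: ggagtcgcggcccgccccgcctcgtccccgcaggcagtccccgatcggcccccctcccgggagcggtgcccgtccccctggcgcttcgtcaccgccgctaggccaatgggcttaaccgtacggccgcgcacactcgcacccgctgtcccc
Timp1: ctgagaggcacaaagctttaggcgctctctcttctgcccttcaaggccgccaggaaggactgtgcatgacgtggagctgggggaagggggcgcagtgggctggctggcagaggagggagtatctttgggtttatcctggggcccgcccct

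In Mmp13 the AP-1 letters begin 35 bases before the start and the RUNX letters 118 bases before it, and neither overlaps the TATA box letters. Mmp3 has AP-1 letters at 46 bases and Plaur at 69 bases. The windows of Htra1 and Timp1 hold none of the 3 motifs, which says only that these letters are absent from 150 bases. Over the 250 bases before the start, 24 of the 38 genes had a window in the table. Members are counted below as genes with the letters in any of their windows. The shares are of windows, so counts and shares are not directly comparable. AP-1 letters were found for 5 of them (Adam19, Mmp10, Mmp13, Mmp3 and Plaur) and in 4.46% of all 32851 windows. RUNX letters were found for 5 of the 24 (Adam15, Adam19, Mmp13, Mmp14 and Mmp23) and in 14.0% of all windows, and GC box letters (GGGCGG or CCGCCC) for 17 of the 24 and in 32.7% of all windows. Among the 3 tested genes with AP-1 letters, Plaur rose, while Mmp13 and Adam19 did not pass.

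All 6 ADAM genes were measured on every array, and none passed (adjusted p 0.0976 to 0.704). Their log2 fold changes ran from 0.07 to 0.47, all above 0, with a median of 0.20, or 0.11 after quantile normalization. Adam15, a membrane-anchored ADAM with an integrin-binding site, showed the widest difference among them. It had 13.17, 13.40 and 13.46 on De-HA 1, 2 and 3, against 13.16, 12.60 and 12.84 on FeMnSi 1, 2 and 3. FeMnSi 1 almost met De-HA 1, and the distance came from FeMnSi 2 and 3. The difference of 0.47 ± 0.16 SE (adjusted p = 0.0976) was 0.18 within slide 1 and passed without FeMnSi 1 (0.62, adjusted p = 0.0238). Adam12, meltrin alpha, a gene of cells that fuse or differentiate in the mesenchyme, gave 0.24 (interval 0.01 to 0.48), and Adam19, meltrin beta, gave 0.16, both with De-HA arrays above FeMnSi arrays. Adam10, the sheddase that opens Notch receptors to signalling, gave 0.25 (interval -0.02 to 0.51), or 0.02 after quantile normalization. Adam9 gave 0.15, or -0.02 after quantile normalization. Adam17, which sheds TNF and EGF receptor ligands, gave 0.07 and 0.14 by its 2 probes and -0.14 within slide 1.

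Of the 8 ADAMTS genes, 7 were tested and none passed, with adjusted p-values from 0.0821 to 0.550. Adamts5, an aggrecanase, came closest, with 7.45, 7.23 and 7.48 on De-HA 1, 2 and 3, against 7.16, 6.84 and 7.01 on FeMnSi 1, 2 and 3. Its groups did not overlap, though De-HA 2 and FeMnSi 1 lay close to each other. The difference was 0.38 ± 0.12 SE (adjusted p = 0.0821, 0.22 within slide 1), its second probe gave 0.46, and it passed without FeMnSi 1 (0.46, adjusted p = 0.0332). Adamts4, the other main aggrecanase, gave 0.18, and Adamts1, which cuts aggrecan and versican, gave 0.17 with overlapping arrays. Adamts2, the enzyme that removes the amino-terminal propeptide of procollagen, gave 0.20 (interval -0.07 to 0.47, 0.01 within slide 1). Adamts12 gave 0.23, with its De-HA arrays between 5.755 and 5.995 above its FeMnSi arrays between 5.59 and 5.72. Adamts10 and Adamts6, paralogs linked to fibrillin microfibrils, were dim, with 5 and 4 of 6 arrays well above background, and gave 0.49 and -0.23 with intervals of 0.08 to 0.91 and -0.86 to 0.39. Adamts9, a versican-cutting protease, was well above background on 1 array, a De-HA array, and was not tested.

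Timp1, the inducible TIMP that blocks many MMPs, fell in De-HA and was the one inhibitor past the threshold. It had 11.71, 11.87 and 11.73 on De-HA 1, 2 and 3, against 12.22, 12.36 and 12.20 on FeMnSi 1, 2 and 3. All De-HA arrays lay below all FeMnSi arrays, and both groups had an SD of 0.09. The fall was 1.40-fold (log2 fold change -0.49 ± 0.09 SE, limma adjusted p = 0.0270), at -0.45 within slide 1, where the slide-block adjusted p was 0.152. It passed without FeMnSi 1 and missed the threshold when any other array was left out (adjusted p 0.0668 to 0.109).

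The remaining inhibitors of metalloproteases did not pass. Timp2, which blocks MMPs and also helps Mmp14 activate pro-Mmp2, had 16.28, 16.30 and 16.34 on De-HA 1, 2 and 3, against 16.27, 15.78 and 15.94 on FeMnSi 1, 2 and 3. FeMnSi 1 was level with De-HA, and FeMnSi 2 and 3 were lower. The difference of 0.31 (interval -0.01 to 0.63) was 0.03 within slide 1 and -0.06 after quantile normalization, and the dimmer probe of Timp2 gave -0.29, so no direction can be given. Without FeMnSi 1 it passed as higher (0.44, adjusted p = 0.0235). Timp3, the matrix-bound TIMP that also blocks Adam17 and aggrecanases, gave 0.16 (interval -0.15 to 0.47), and Timp4 gave -0.08 (interval -0.57 to 0.41), or 0.22 within slide 1. Reck, a membrane-anchored inhibitor of MMPs, had 9.54, 9.67 and 9.64 in De-HA, above 9.43, 9.23 and 9.41 in FeMnSi, a difference of 0.26 ± 0.09 SE (adjusted p = 0.113, 0.19 within slide 1), and its second probe gave 0.12.

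In the plasminogen system, the urokinase receptor gene Plaur and the tissue-type activator gene Plat rose. Plaur had 8.19, 8.41 and 8.53 on De-HA 1, 2 and 3, against 7.99, 7.89 and 7.85 on FeMnSi 1, 2 and 3. The groups were apart, with De-HA 1 nearest to FeMnSi. Plaur rose 1.39-fold (log2 fold change 0.47 ± 0.11 SE, limma adjusted p = 0.0435, 0.39 within slide 1). Plat had 8.68, 8.55 and 8.56 on De-HA 1, 2 and 3, against 8.28, 8.21 and 8.26 on FeMnSi 1, 2 and 3, and the arrays within a group differed by less than the groups did. Its rise was 1.27-fold (0.35 ± 0.08 SE, adjusted p = 0.0463, 0.31 within slide 1). Both lay close to the threshold: after quantile normalization the adjusted p was 0.0560 for Plaur and 0.0507 for Plat, with median scaling 0.116 and 0.128, and with the slide as a block 0.247 and 0.228. Plaur passed without De-HA 1 and without FeMnSi 1, and Plat without FeMnSi 1 alone. Leaving out any other array gave 0.111 to 0.150 for Plaur and 0.109 to 0.146 for Plat.

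Plau, the urokinase gene, did not pass, although its De-HA arrays at 7.04, 7.003 and 7.03 were above its FeMnSi arrays at 6.87, 6.36 and 6.59. FeMnSi 1 was again the closest to De-HA. The difference was 0.41 ± 0.14 SE (adjusted p = 0.0910), at 0.15 within slide 1, and 0.54 without FeMnSi 1, where it passed (adjusted p = 0.0191). Serpine2, protease nexin-1, an inhibitor of thrombin and of both activators, had 9.66, 9.14 and 9.24 on De-HA 1, 2 and 3, against 9.62, 10.58 and 9.94 on FeMnSi 1, 2 and 3. FeMnSi 1 lay below De-HA 1, and the FeMnSi SD of 0.49 was the widest for any of the 32 genes in that group. Its log2 fold change was -0.70 ± 0.26 SE (adjusted p = 0.117), -0.27 within slide 1, and -0.91 without FeMnSi 1 (adjusted p = 0.0362).

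Htra1, a secreted serine protease that cuts fibronectin and other matrix proteins, rose and had the largest called increase of the 32 genes. It had 12.60, 12.63 and 12.76 on De-HA 1, 2 and 3, against 12.18, 11.85 and 11.99 on FeMnSi 1, 2 and 3. Each De-HA array was above each FeMnSi array, and FeMnSi 1 was the highest of its group. The rise was 1.58-fold (log2 fold change 0.66 ± 0.11 SE, limma adjusted p = 0.0195), at 0.49 within slide 1 with a slide-block adjusted p of 0.124. It passed also after quantile normalization (0.52, adjusted p = 0.0220). When 1 array was left out it passed without FeMnSi 1 and gave adjusted p-values of 0.0517 to 0.0858 otherwise. Bmp1, the procollagen C-proteinase, had 10.98, 11.06 and 11.09 in De-HA, above 10.76, 10.82 and 10.79 in FeMnSi. The groups were apart by a small step, a difference of 0.25 ± 0.08 SE that did not pass (adjusted p = 0.0858, 0.28 within slide 1), and its second kept probe gave 0.39. Another Bmp1 probe was marked as an outlier on 4 arrays and was left out.

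**Figure D2:**
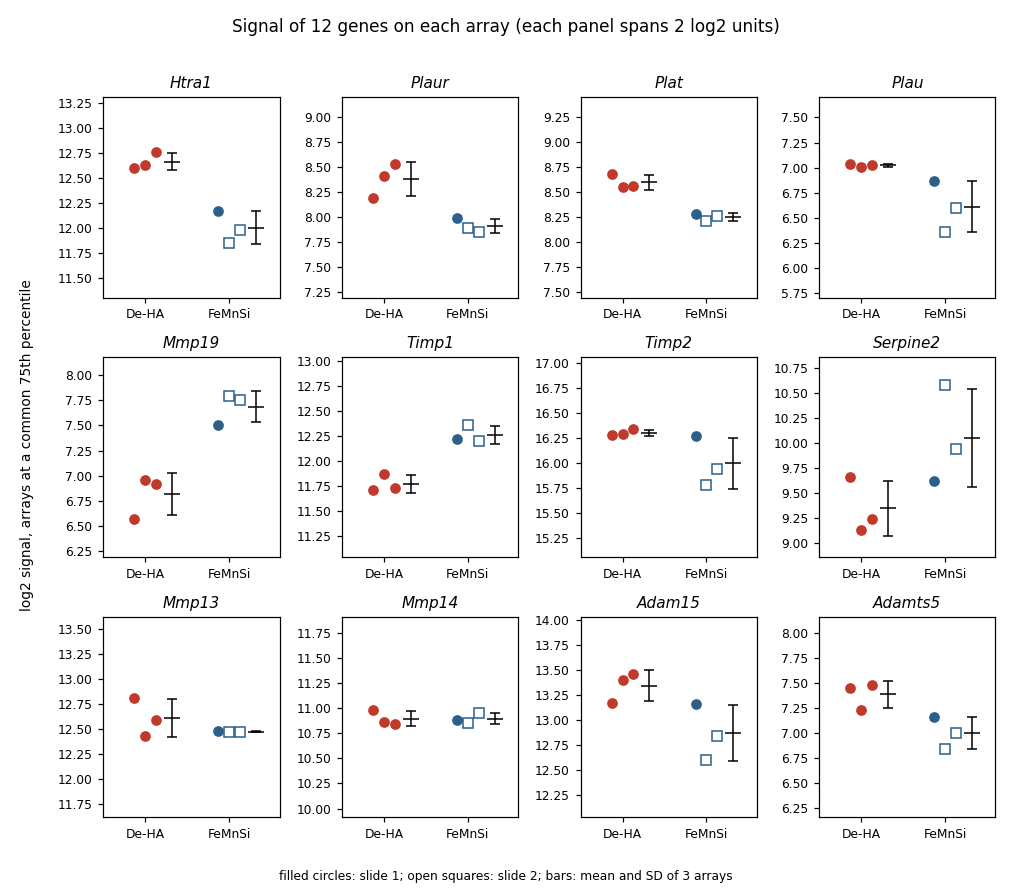
Log2 signal on each array for 12 of the genes (y axis, arrays at a common 75th percentile, each panel 2 log2 units high), De-HA in red and FeMnSi in blue. Filled circles are arrays of slide 1, open squares arrays of slide 2, and bars the mean and SD of 3 arrays. The groups lie apart for Htra1, Plaur, Plat, Mmp19 and Timp1, which passed, and also for Timp2, Adam15, Plau and Adamts5, which did not. For Timp2, Adam15 and Plau the FeMnSi array of slide 1 lies near the De-HA arrays.

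The log2 ratio of a protease gene to an inhibitor gene on the same array does not depend on a single scaling factor per array. It was taken for 8 pairs in which both genes were measured, as values without a test. The ratio of Mmp13 to Timp1 was 1.11, 0.56 and 0.86 on De-HA 1, 2 and 3, against 0.26, 0.11 and 0.28 on FeMnSi 1, 2 and 3. It was higher on every De-HA array, by 0.62 on average, and 0.58 within slide 1. Plat over Serpine2 was -0.98, -0.59 and -0.68 in De-HA, against -1.33, -2.37 and -1.68 in FeMnSi. That difference of 1.04 also left the groups apart, but it was 0.58 within slide 1, and FeMnSi 2 lay far below FeMnSi 1. Adamts5 over Timp3 (difference 0.23) was higher on all De-HA arrays, and Mmp2 over Timp2 (-0.26) and Mmp14 over Reck (-0.26) were lower. Of these, Mmp2 over Timp2 was -0.05 after quantile normalization and 0.04 with the mean of the probes of each gene. Within slide 1 it was -0.17, and De-HA 1 (-3.584) nearly met FeMnSi 1 (-3.542). Mmp14 over Reck was -0.18 within slide 1, with De-HA 1 (1.445) next to FeMnSi 1 (1.458). The share of other gene pairs whose arrays lie apart was not determined. Arrays overlapped for Mmp14 over Timp2 (-0.31), Adam17 over Timp3 (-0.09) and Adamts4 over Timp3 (0.02). Mmp14 over Timp2 was 0.0109 after quantile normalization, -0.021 within slide 1 and -0.01 with the mean of the probes, and Adam17 over Timp3 was 0.0712 after quantile normalization, so neither has a settled direction. Adamts5 over Timp3 was 0.36 after quantile normalization. Such a difference would mean that 2 genes changed unequally, which was not tested, and it does not tell which of them changed.

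**Figure D3:**
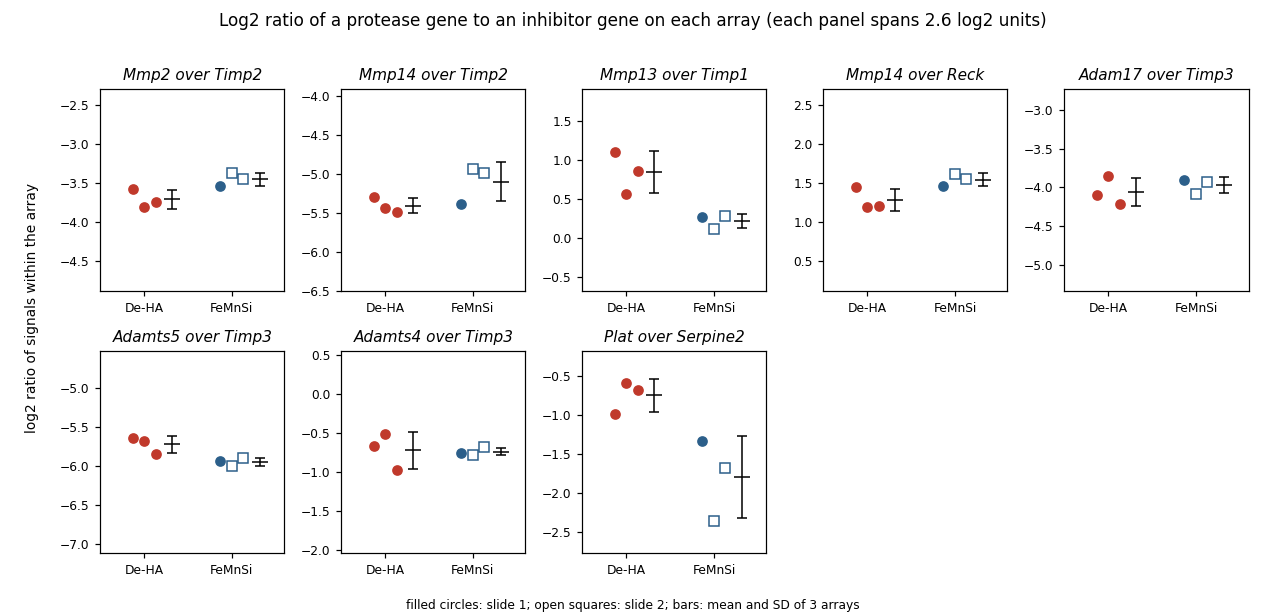
Log2 ratio of the signals of a protease gene and an inhibitor gene on each array (y axis, log2 units, each panel 2.6 units high) for 8 pairs, De-HA in red and FeMnSi in blue. Filled circles are slide 1, open squares slide 2, and bars the mean and SD of 3 arrays. Mmp13 over Timp1 was 0.84 ± 0.27 in De-HA and 0.22 ± 0.09 in FeMnSi (SD, n = 3 each), with no overlap.

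Related genes outside the list were taken from lists drawn up beside it, also with earlier results known. Among 14 tested of 21 further ADAM, ADAMTS and ADAMTS-like genes, 4 rose and 1 fell. Adam8, an ADAM best known from leukocytes and osteoclast formation, fell 2.64-fold, with 7.77, 7.85 and 7.79 on De-HA 1, 2 and 3, against 9.28, 9.12 and 9.21 on FeMnSi 1, 2 and 3. The arrays of each group were tight and far from those of the other (log2 fold change -1.40 ± 0.09 SE, limma adjusted p = 0.00119, -1.48 within slide 1). Adam8 passed in all 18 alternatives, at a slide-block adjusted p of 0.0116. Both slide settings set the De-HA arrays against FeMnSi 1, so their estimate rests on a single FeMnSi array. Adamtsl3, which encodes an ADAMTS-like protein without a protease domain, rose 1.90-fold (0.93 ± 0.12 SE, adjusted p = 0.00895, 0.95 within slide 1, slide-block adjusted p = 0.0613). Its call was lost without De-HA 3 (adjusted p = 0.0518) and without FeMnSi 3 (0.0510). Adam11, an ADAM lacking a working catalytic site, rose 1.69-fold (0.76 ± 0.12 SE, adjusted p = 0.0144, 0.75 within slide 1, slide-block 0.0908), a call lost without De-HA 2, De-HA 3 or FeMnSi 3 (0.0518 to 0.0588). Adamts17 (0.73, adjusted p = 0.0304) and the fibrillin-binding Adamtsl4 (0.40, adjusted p = 0.0423) also rose, but among the fits that leave out 1 array both passed without FeMnSi 1 alone, and with the slide as a block neither passed (0.191 and 0.224).

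The signal of macrophage and osteoclast markers was compared because Adam8 and Mmp19 are also made by such cells. Summed over the 6 measured markers of 8, it was 21460 to 23670 in De-HA and 23940 to 26110 in FeMnSi. Most of that sum was Ctsk, which pre-osteoblasts can also express. Without it, the other 5 (Ptprc, Adgre1, Csf1r, Lyz2 and Itgam) summed to 2594 to 2901 in De-HA and 1927 to 2754 in FeMnSi, ranges that overlap and run the other way, and Cd68 and Acp5 were not kept. Most of this smaller sum was Itgam, which did not pass (0.24, limma adjusted p = 0.428). Of the 6, 2 rose (Adgre1 by 0.77 and Ptprc by 0.55 on the log2 scale) and Lyz2 fell by 0.39, and after quantile normalization Adgre1 passed as higher and Lyz2 and Ctsk as lower. In the slide-block fit none of the 6 passed (0.0711 for Adgre1, 0.278 for Ptprc and 0.166 for Lyz2). Their part in the falls of Adam8 and Mmp19 was not tested. In bulk RNA, fewer cells of a type and less RNA per cell cannot be told apart.

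Among 11 tested of 18 activators, cofactors and further inhibitors, 3 rose and none fell. Pcolce2, whose product speeds up the procollagen C-proteinase, rose 2.48-fold, with 9.36, 9.58 and 9.24 on De-HA 1, 2 and 3, against 8.08, 8.14 and 8.04 on FeMnSi 1, 2 and 3. Its groups stood wide apart (1.31 ± 0.11 SE, limma adjusted p = 0.00242, 1.32 within slide 1), and the call held in the slide-block fit (adjusted p = 0.0287). That estimate rests on FeMnSi 1 as its single FeMnSi array, and the call was lost on the arrays of slide 1 alone. Pcolce, the paralog, gave 0.26 (adjusted p = 0.0909), or -0.08 after quantile normalization. Pcsk6, a furin-like proprotein convertase, rose 2.06-fold from a dim probe (4.80, 4.86 and 4.73 in De-HA, 3.89, 3.55 and 3.83 in FeMnSi, adjusted p = 0.00687). Its log2 fold change of 1.04 was 0.91 within slide 1 (slide-block adjusted p = 0.0526) and 0.38 with normexp background correction. Spock2, which encodes the matrix proteoglycan testican-2, rose 1.58-fold (0.66 ± 0.13 SE, adjusted p = 0.0292, 0.38 within slide 1, slide-block adjusted p = 0.145), and among the fits that leave out 1 array passed without FeMnSi 1 alone.

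None of the 11 tested of 13 further plasminogen system genes passed (adjusted p 0.0615 for Lrp1, the receptor that clears activator and inhibitor complexes, to 0.854). Of 10 further MMPs, 3 were tested (Mmp1b, Mmp21 and Mmp28) and none passed.

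All 12 transcription factor genes known for Mmp13 control were tested, and 1 rose and 3 fell. Fosl1, an AP-1 subunit, fell 2.15-fold, with 5.56, 5.39 and 5.52 on De-HA 1, 2 and 3, against 6.58, 6.68 and 6.53 on FeMnSi 1, 2 and 3. Here too the groups were far apart (-1.10 ± 0.09 SE, limma adjusted p = 0.00242, -1.08 within slide 1, slide-block adjusted p = 0.0279). The fall was -0.51 with normexp background correction, where it also passed. On the arrays of slide 1 alone the call of Fosl1 was lost. Fos (-1.19, adjusted p = 0.0454) and Jun (-0.63, adjusted p = 0.0484) fell as well, while Runx2 rose (0.56, adjusted p = 0.0309). In the slide-block fit the adjusted p of these 3 was 0.185, 0.0613 and 0.152. Without FeMnSi 1 all 3 passed. Fos passed also without De-HA 3 and Jun without FeMnSi 2, and no other fit that left out 1 array kept any of the 3. For comparison, Mmp13 differed by 0.14 in the same fit and did not pass.

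**Figure D4:**
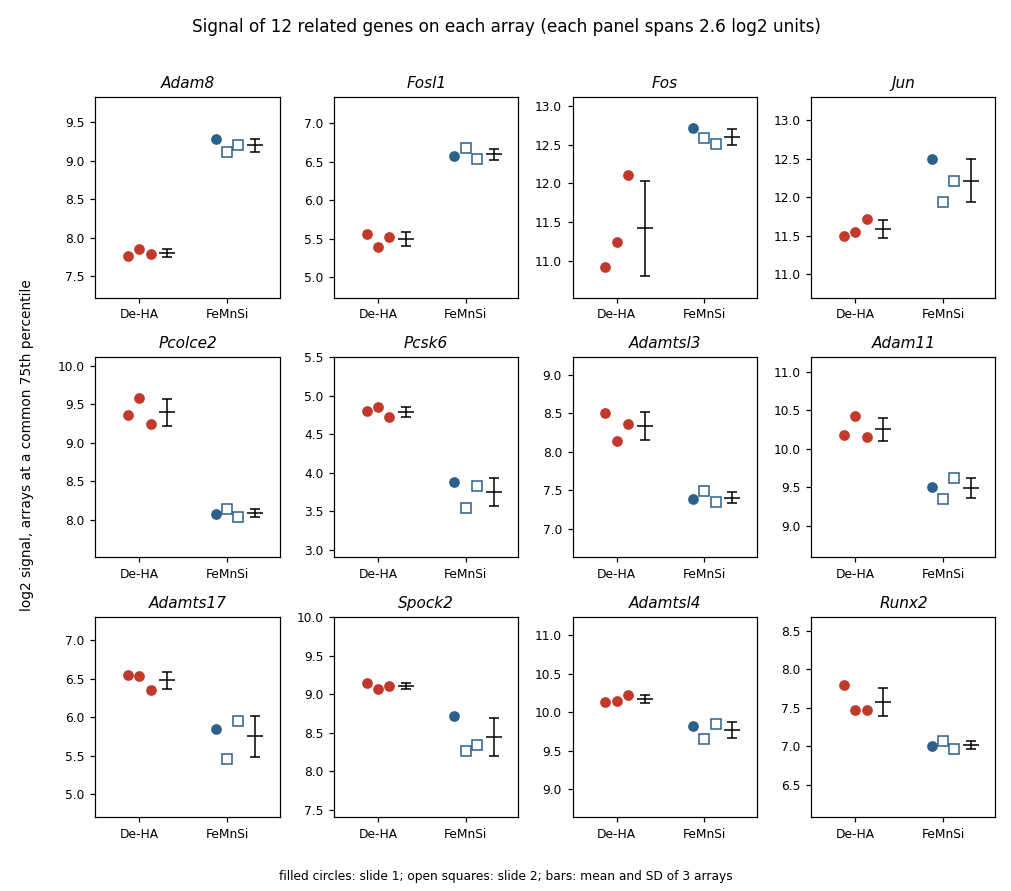
Log2 signal on each array for 12 related genes outside the list (y axis, arrays at a common 75th percentile, each panel 2.6 log2 units high), De-HA in red and FeMnSi in blue. Filled circles are slide 1, open squares slide 2, and bars the mean and SD of 3 arrays. Adam8 at 7.80 ± 0.05 in De-HA and 9.20 ± 0.08 in FeMnSi and Pcolce2 at 9.40 ± 0.17 in De-HA and 8.08 ± 0.05 in FeMnSi (SD, n = 3 each) show the widest gaps.

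The 5 called members kept their direction in all 18 alternatives, a direction fixed in most of them because their arrays lie apart. They differed in how often they kept the call. The fit without FeMnSi 1, in which group and slide cannot be told apart, is counted among the 18. Mmp19 passed in 13 of the 18, Htra1 and Timp1 in 9 each, Plaur in 7 and Plat in 5. None passed with the slide as a block or on the 4 arrays of slide 1 alone. The last of these sets 3 De-HA arrays against FeMnSi 1, which is assumed to vary as the De-HA arrays do, so whether a gene passes there says little. The plot of settings gives each value.

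**Figure D5:**
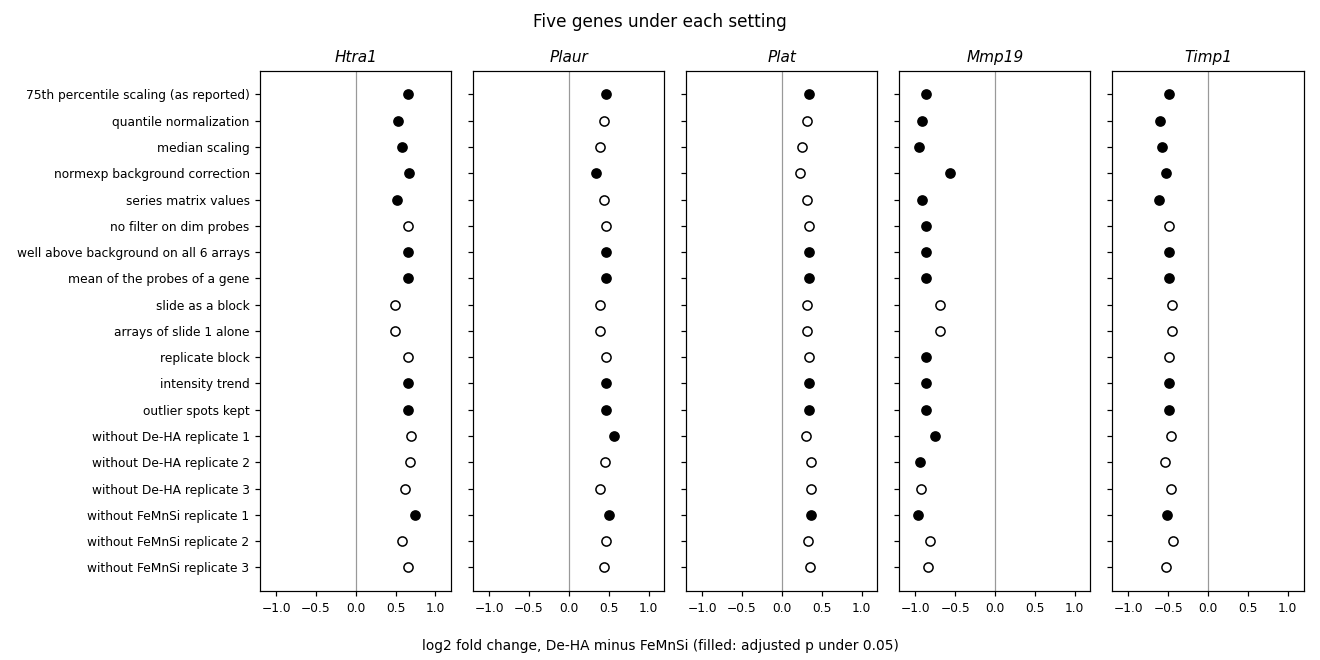
Log2 fold change of Htra1, Plaur, Plat, Mmp19 and Timp1 (x axis, De-HA minus FeMnSi, log2 units) under the reported setting and 18 alternatives (rows). Filled points passed an adjusted p of 0.05. Htra1 ran from 0.49 to 0.75 and Mmp19 from -0.96 to -0.56, and the rows for the slide hold open points alone.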

How the data were processed

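Total RNA from 6 samples (3 De-HA, 3 FeMnSi) was labelled with Cy3 and hybridised to Agilent arrays. The submitters' processing notes name Agilent Feature Extraction 11.0.1.1, whose intensity values per spot the authors deposited. The authors' deposited value table holds log2 values of the same arrays and served as an alternative.

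Processed signals were taken to log2 and brought to a common 75th percentile. Control and outlier spots were left out and spots of a probe averaged. A probe was kept if well above background on at least 3 of 6 arrays, and the brightest kept probe stood for its gene. Names came from RefSeq accessions (GRCm38.p6 table). limma 3.58.1 in R 4.3.3 compared the groups, with Benjamini-Hochberg adjustment over 15535 genes, and was tested on simulated data. Normexp used median signals, and 6 spots of FeMnSi 3 with a local background above their signal received that array's median background. The labels do not say that replicate numbers pair the samples. Same-number correlations (0.007, -0.11 and 0.12) lay within the range of the different-number ones (-0.25 to 0.23). With 3 arrays per group they cannot settle whether the samples were paired. The number of arrays limits the precision.

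The members and all lists were chosen with earlier results of these data known. All members are described; from each list of related genes up to 4 past the threshold in each direction are named. A further gene of this rule, and the ratios that use it, are not reported here.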

Additional observations from a re-analysis of the deposited data

How the results depend on the processing

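The number of genes past the threshold was 1669. It was 519 without the filter on dim probes, 180 with slide as a blocking term, 36 using slide 1 only, and 227 to 4611 when 1 array was left out, the highest without FeMnSi 1. The member genes higher in De-HA numbered 3, against 1 under quantile normalization, median scaling or the deposited value table, 0 without the filter or with either slide setting, and 0 to 7 when 1 array was left out. The member genes lower numbered 2, against 1 without the filter, 0 with either slide setting, and 0 to 3 when 1 array was left out. The median log2 fold change of the members, 0.17, was 0.0397 under quantile normalization, 0.0807 under median scaling, 0.0378 in the deposited value table and 0.14 to 0.21 when 1 array was left out. Among called genes 60.1% were higher in De-HA, a share of 43.8% under quantile normalization and 37.3% under median scaling. With the replicate number as a block, 693 genes passed, with 0 members higher and 1 lower (Mmp19), though the labels do not say that the numbers pair the samples.

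Signs turned for genes that passed in neither setting. Under quantile normalization they were Mmp2 (-0.11), Mmp13 (-0.0239), Mmp16 (-0.0694), Mmp24 (-0.0588), Adam9 (-0.0179) and Timp2 (-0.0597). Under median scaling they were Mmp2 (-0.0383), Mmp11 (-0.0368), Mmp16 (-0.0436), Mmp24 (-0.0255) and Adam17 (-0.0146), and under normexp Adamts6 (0.13) and Timp4 (0.0155). In the deposited value table they were Mmp2 (-0.12), Mmp11 (-0.0026), Mmp13 (-0.0281), Mmp16 (-0.0782), Mmp24 (-0.0673), Adam9 (-0.0268), Timp2 (-0.0565) and Timp3 (-0.01). In both slide settings they were Mmp2 (-0.14), Mmp11 (-0.0507), Mmp14 (0.0101), Adam17 (-0.14) and Timp4 (0.22). Leaving out 1 array gave -0.0209 to 0.14 for Mmp2, -0.073 to 0.11 for Mmp16, -0.0714 to 0.22 for Mmp24, -0.0387 to 0.18 for Adam17, -0.46 to 0.0664 for Adamts6, -0.23 to 0.11 for Timp4 and -0.043 to 0.0286 for Mmp14. The causes were not tested. Adamts6 and Adamts10 have no value when all 6 arrays must be well above background.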
